A study of Mus musculus with 9 samples.

Results

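The genes of the T cell receptor complex and its coreceptors were read in sorted progenitors: Cd3d, Cd3e, Cd3g, Cd247, Lck, Cd28, Cd2, Cd5, Cd6 and Thy1. They were taken by name from a table of 24060 named genes, so they are 10 of 24060. The libraries are RNA-seq counts of LSKs, the Lineage-low Sca1+ Kit+ fraction of bone marrow that holds stem cells and multipotent progenitors. Donor marrow of C57BL/6 background, CD45.2, was engrafted into lethally irradiated congenic CD45.1 recipients, all recipients received doxycycline for 3 months, and the samples are labelled with an age of 4 months. Control marrow (3 libraries) carried no named transgene. NHD13 marrow (2 libraries) carried the NUP98-HOXD13 fusion, a leukaemia fusion driven in blood cells by the Vav promoter. NHD13/MSI2 marrow (4 libraries) carried that fusion together with a doxycycline-inducible MSI2 allele, an RNA-binding protein, and the ROSA26 rtTA activator. The LSK gate removes cells by lineage antibodies that include CD3, CD4, CD8 and B220, so mature T cells and B lineage cells were sorted against. The recipients still hold blood cells of their own, which the CD45.2 gate leaves out.

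At the surface of a T cell the antigen-binding receptor chains signal through the CD3 gamma, delta and epsilon chains and the zeta chain encoded by Cd247. The Src family kinase LCK phosphorylates these chains and ZAP-70 then relays the signal through the adaptors LAT and SLP-76. CD28 adds a costimulatory signal, CD2 mediates adhesion, CD5 and CD6 are scavenger receptor family proteins that tune the response, and THY1 is a glycolipid-anchored surface protein of mouse T cells and of some progenitors. Of these, Cd3d, Cd3e and Cd3g define committed T cells most closely, whereas Lck, Cd5, Cd6 and Thy1 are also found in other blood cells.

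The genes moved apart from each other. Cd5 and Cd6 were higher in NHD13 than in control and higher again in the libraries labelled NHD13/MSI2, where they reached 30.0 and 37.0 times the control mean. Lck was highest in NHD13, at 4.66 times control, and was 2.71 times lower in the libraries labelled NHD13/MSI2 than in NHD13. The 3 CD3 genes and Cd2 had few or no counts in most libraries. Cd247, Cd28, Thy1 and Cd2 were each highest in 1 library, NHD13 replicate 1.

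Total counts ran from 19242153 to 23013493 per library, and levels are given as CPM, counts per 1000000 of the TMM-normalized library size. NHD13 replicates 1 and 2 correlated least of all replicate pairs in log2 CPM (Pearson's r = 0.937), and NHD13/MSI2 replicate 4 correlated with the other libraries of its group at r of 0.943 to 0.949, against 0.970 to 0.979 for the remaining pairs. NHD13 replicate 1 and NHD13/MSI2 replicate 4 are the libraries said below to stand apart. The r of the NHD13 pair cannot tell which of its 2 libraries does, and replicate 1 was chosen after seeing the data. Hoxd13, the 3' part of the fusion, had 0 counts in every control library and 13 to 25 counts in each of the other 6. Msi2, in contrast, was at 223 to 316 CPM in control and at 139 and 111 CPM in NHD13. In the libraries labelled NHD13/MSI2 it was at 88.0, 77.1, 82.8 and 241 CPM, in the order of replicates. The log2 fold change between the last 2 groups was -0.03. Replicates 1 to 3 were thus below both NHD13 libraries and replicate 4 was above both. These libraries are therefore named by their labels. Whether the Msi2 row can count the induced allele was not tested. Xist was high in control replicates 1 and 3 and Y-linked genes were high in the other 7 libraries, so donor sex differed within the control group. The control libraries also differ in name, since replicate 1 is called bulk and replicates 2 and 3 carry the names of multipotent progenitors and stem cells. No label ties a library to a separate animal, so the p-values measure only the spread between these libraries.

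The start regions of the genes on which the results turn are shown first: Cd5 because it rose, Lck because it was highest in NHD13 and has a pair of start sites, and Cd3e because it was at or near 0 in most libraries. Each window runs from 250 bases before to 50 bases after a RefSeq start site on GRCm38.p6, read 5′ to 3′ on the gene's strand. Capitals mark AGGAAGT or its reverse complement ACTTCCT, an ETS-type motif.
Cd5, chr19:10738925-10739224, minus strand: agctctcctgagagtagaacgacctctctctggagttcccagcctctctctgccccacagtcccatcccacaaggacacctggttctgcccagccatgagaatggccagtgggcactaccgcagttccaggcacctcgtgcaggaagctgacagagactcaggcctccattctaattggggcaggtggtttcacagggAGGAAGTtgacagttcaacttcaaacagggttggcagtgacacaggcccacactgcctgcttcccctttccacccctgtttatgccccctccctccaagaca
Lck, upstream start site, chr4:129573592-129573891, minus strand: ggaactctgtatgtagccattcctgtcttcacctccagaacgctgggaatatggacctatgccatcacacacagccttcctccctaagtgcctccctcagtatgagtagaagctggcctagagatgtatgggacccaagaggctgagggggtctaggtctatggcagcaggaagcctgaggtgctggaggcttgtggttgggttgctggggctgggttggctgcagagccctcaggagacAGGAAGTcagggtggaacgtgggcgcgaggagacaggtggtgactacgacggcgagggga
Lck, downstream start site, chr4:129558323-129558622, minus strand: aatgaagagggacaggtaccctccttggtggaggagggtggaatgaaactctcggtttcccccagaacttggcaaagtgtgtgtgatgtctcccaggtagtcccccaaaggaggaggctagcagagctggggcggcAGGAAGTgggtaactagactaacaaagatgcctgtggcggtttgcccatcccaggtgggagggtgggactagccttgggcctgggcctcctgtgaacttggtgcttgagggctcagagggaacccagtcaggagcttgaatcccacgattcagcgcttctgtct
Cd3e, chr9:45009562-45009861, minus strand: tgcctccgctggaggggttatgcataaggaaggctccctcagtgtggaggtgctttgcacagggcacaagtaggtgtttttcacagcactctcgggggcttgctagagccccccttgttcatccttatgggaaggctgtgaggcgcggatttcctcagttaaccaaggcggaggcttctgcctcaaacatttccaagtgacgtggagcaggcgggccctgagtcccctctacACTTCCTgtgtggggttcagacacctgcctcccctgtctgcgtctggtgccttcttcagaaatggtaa
Of the 10 genes, 6 had such a window, 7 windows in all. The motif AGGAAGT was present in 6 of the 7, those of Cd5, Lck, Cd3d, Cd3e and Cd247, against 9.35% of all 32851 windows of this length. It was chosen after the windows had been read, and it did not separate genes that rose from genes near 0, since Cd5 and Cd3e both hold 1 match. A RUNX motif, TGTGGT, was found in 1 window, that of the upstream Lck start site, and occurs in 16.8% of all windows. The GATA motif AGATAA occurred in the Cd3g window only (11.2% of all windows), and the TCF/LEF motif CTTTGA in the Cd3d and Cd247 windows (16.0%). Every one of the 7 windows held an E-box, CANNTG, which 72.3% of all windows hold. Both strands were searched, and no match overlapped another. A match is a description of the sequence only. Cd2, Cd6, Cd28 and Thy1 had no window here.

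The genes sit at 7 places in the genome (GENCODE M21, GRCm38). Cd3g, Cd3d and Cd3e lie side by side on chromosome 9, with the starts of Cd3g and Cd3d 1355 bases apart and facing away from each other, and Thy1 lies 921.0 kb from them. Cd5 (chromosome 19, 10717116 to 10739002) and Cd6 (chromosome 19, 10789341 to 10830058) are neighbours on the minus strand, separated by 50.3 kb. Lck spans 129548344 to 129573641 on chromosome 4. Cd247 lies on chromosome 1, and 3124 bases of its exons overlap those of Pou2f1 on the opposite strand and of Gm16565, so its counts are uncertain where the counting did not use strand, which is not given in the sources used here.

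Cd5 and Cd6, both regulators of receptor signalling, showed the clearest steps between groups. Cd5 was at 0.532, 0.759 and 0.400 CPM in the control libraries, at 3.45 and 3.41 CPM in NHD13 and at 14.8, 14.2, 18.9 and 19.6 CPM in the libraries labelled NHD13/MSI2. No library of a group overlapped another group. The group means were 0.564 ± 0.182 (SD, n = 3), 3.43 ± 0.029 (SD, n = 2) and 16.9 ± 2.76 (SD, n = 4) CPM. Cd6, whose ligand is the adhesion molecule ALCAM, was at 3.52, 1.95 and 3.24 CPM in control, at 20.3 and 18.6 CPM in NHD13 and at 103, 83.7, 106 and 138 CPM in the libraries labelled NHD13/MSI2. Here too the groups did not overlap, and the lowest library labelled NHD13/MSI2 was above 4 times the highest NHD13 library. Both genes were in the gene list that the study chose on these same samples, so their direction is not independent evidence.

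**Figure D1:**
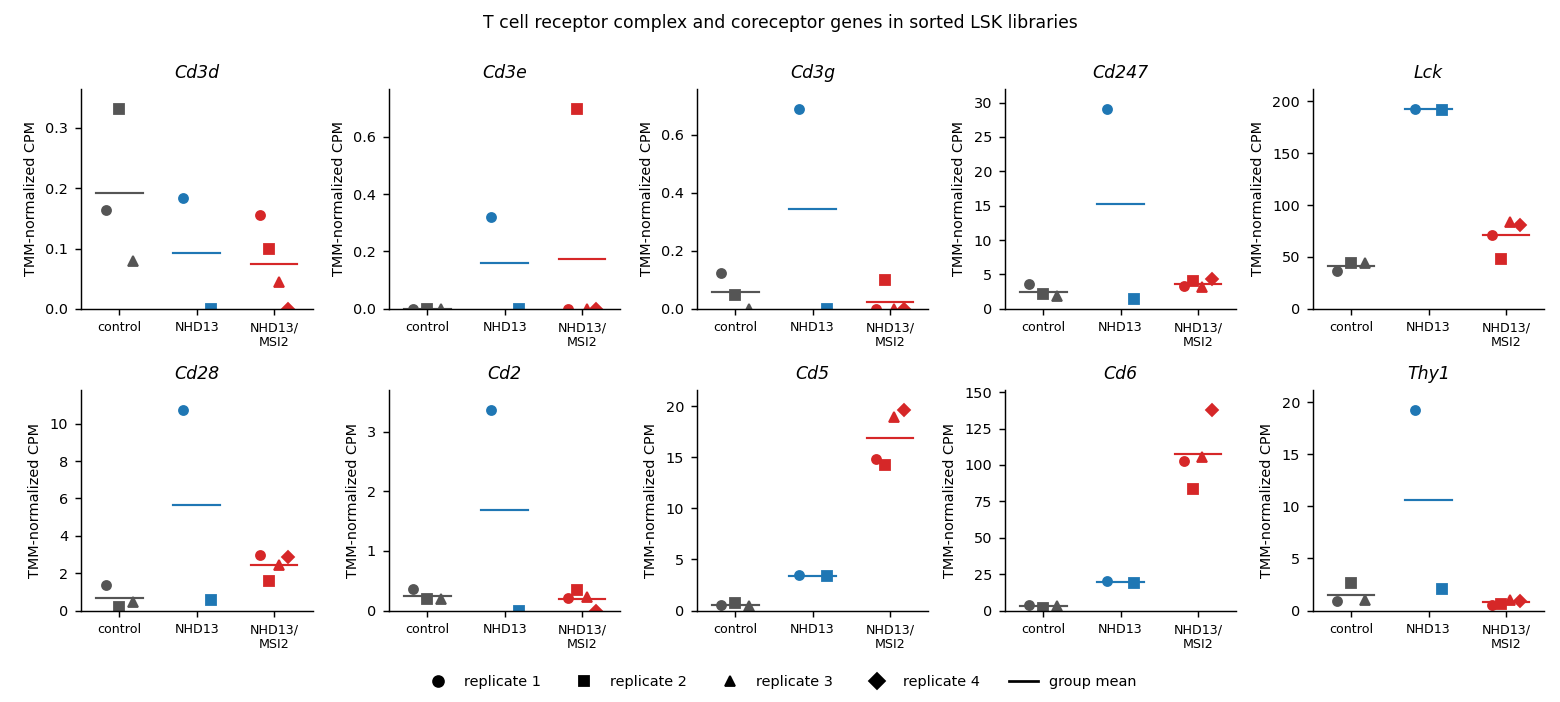
TMM-normalized CPM (y axis, from 0, a separate scale for each gene) of the 10 genes in each library, grouped as control, NHD13 and NHD13/MSI2, with 1 marker per replicate number and a line at the group mean. Cd5 and Cd6 step up from control to NHD13 to NHD13/MSI2, Lck peaks at 193 and 192 CPM in NHD13, and Cd247, Cd28, Cd2 and Thy1 are high in NHD13 replicate 1 alone.

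The log2 fold changes of Cd5 were 2.60 ± 0.34 (SE) for NHD13 over control, 2.30 ± 0.33 for NHD13/MSI2 over NHD13 and 4.90 ± 0.33 for NHD13/MSI2 over control. In edgeR (quasi-likelihood test, Benjamini-Hochberg adjustment over 13355 genes), the adjusted p was 0.00366, 0.00412 and 2.83e-05 in these comparisons. For Cd6 the log2 fold changes were 2.74 ± 0.28, 2.46 ± 0.28 and 5.20 ± 0.28. The adjusted p of Cd6 by the same edgeR test was 0.00121, 0.00158 and 1.25e-05. The threshold was an adjusted p under 0.01, and both genes passed it in each comparison. Without NHD13 replicate 1, the log2 fold changes over NHD13 were 2.33 (Cd5, adjusted p = 0.0306 by edgeR) and 2.55 (Cd6, adjusted p = 0.0152 by edgeR), so the sizes stayed and the calls were lost. The call of Cd5 over NHD13 was also lost without NHD13 replicate 2, control replicate 1, NHD13/MSI2 replicate 1 or NHD13/MSI2 replicate 3, with adjusted p of 0.0103 to 0.0306 in edgeR over these 5 fits. In NHD13 over control, the call of Cd5 was lost without control replicate 1 or 3, NHD13 replicate 1 or 2, or NHD13/MSI2 replicate 3 (adjusted p of 0.0111 to 0.0240 in edgeR). Over control, both genes kept their calls in all 19 alternative fits of NHD13/MSI2.

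The 2 genes also kept close to 1 ratio. Per kb of exon, Cd6 was 5.63 to 7.23 times Cd5 in the 6 libraries with the fusion. In control, where Cd5 had 10 to 16 counts, the ratio was 6.82, 2.64 and 8.35. Their counts share libraries and depth, so the ratio is a description of these libraries.

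Lck, the kinase that starts receptor signalling, had the highest level per kb in control and NHD13. It was at 36.1, 44.1 and 43.7 CPM in control, at 193 and 192 CPM in NHD13 and at 71.0, 48.4, 83.8 and 81.1 CPM in the libraries labelled NHD13/MSI2. Both NHD13 libraries were above all 7 others, and the libraries labelled NHD13/MSI2 lay between the control and NHD13 libraries. The log2 fold change was 2.22 ± 0.23 for NHD13 over control (adjusted p = 0.00135 in edgeR) and -1.44 ± 0.21 for NHD13/MSI2 over NHD13 (adjusted p = 0.00426 by the same edgeR test). For NHD13/MSI2 over control it was 0.78 ± 0.20, with an adjusted p = 0.0198 by edgeR that missed the threshold, and it passed at 0.00472 without NHD13/MSI2 replicate 2. Lck was as high in NHD13 replicate 2, where the CD3 genes had 0 counts, as in replicate 1. The lower level over NHD13 kept its direction in every alternative, from -1.63 to -1.27, but it lost its call without any 1 of the control libraries, either NHD13 library or NHD13/MSI2 replicate 1 (adjusted p of 0.0103 to 0.0323 in edgeR). Lck over control in NHD13 lost its call without control replicate 1 (adjusted p just above the threshold in edgeR) or control replicate 3 (adjusted p = 0.0108 in edgeR).

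Of the signalling chains of the receptor, the 3 CD3 genes were at or near 0, whereas Cd247 was counted in every library. Cd3e had 0 counts in the 3 control libraries, 7 and 0 in NHD13, and 0, 14, 0 and 0 in the libraries labelled NHD13/MSI2. Cd3g had 3, 1 and 0 counts in control, 15 and 0 in NHD13, and 0, 2, 0 and 0 in the libraries labelled NHD13/MSI2. Cd3d had 4, 7 and 2 counts in control, 4 and 0 in NHD13, and 3, 2, 1 and 0 in the libraries labelled NHD13/MSI2. In a library, 3 counts, taken as the limit that a count of 0 allows, come to 0.120 to 0.195 CPM, and this covers counting error only. The 3 CD3 genes together had 26 counts in NHD13 replicate 1 and 18 in NHD13/MSI2 replicate 2, against 0 to 8 in each of the other 7. No difference between groups was detectable at this depth, and none of the 3 passed the filter on low counts.

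Cd2, the adhesion receptor, also failed that filter. It had 9, 4 and 5 counts in control, 73 and 0 in NHD13, and 4, 7, 5 and 0 in the libraries labelled NHD13/MSI2. Its counts above 9 thus came from 1 library. With no filter, the 4 genes gave no call in any comparison, with adjusted p of 0.27 or more in edgeR. No row named for a receptor chain (names starting with Tcra, Tcrb, Tcrg, Tcrd, Trac, Trbc, Trgc or Trdc) was found among those analysed here.

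For Cd247, Cd28 and Thy1 the 2 NHD13 libraries lay far apart. Cd247, the zeta chain, was at 3.56, 2.18 and 1.80 CPM in control, at 29.1 and 1.38 CPM in NHD13 and at 3.26, 3.99, 3.12 and 4.28 CPM in the libraries labelled NHD13/MSI2. Cd28, the costimulatory receptor, was at 1.39, 0.190 and 0.440 CPM in control, at 10.7 and 0.543 CPM in NHD13 and at 2.95, 1.60, 2.44 and 2.86 CPM in the libraries labelled NHD13/MSI2. Thy1 was at 0.940, 2.61 and 1.00 CPM in control, at 19.2 and 2.03 CPM in NHD13 and at 0.569, 0.648, 1.04 and 0.909 CPM in the libraries labelled NHD13/MSI2. For each of the 3, NHD13 replicate 1 was above every other library and replicate 2 lay within or below the control range.

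None of the 3 passed the threshold in edgeR, whereas DESeq2 called Thy1 in NHD13/MSI2 over NHD13 (log2 fold change -3.73, adjusted p = 0.000216). In NHD13 over control the log2 fold changes were 2.60 ± 0.88 (Cd247), 3.05 ± 1.07 (Cd28) and 2.81 ± 0.83 (Thy1), with adjusted p of 0.203, 0.219 and 0.132 in edgeR. Over NHD13, the libraries labelled NHD13/MSI2 gave -2.06 ± 0.80, -1.19 ± 0.95 and -3.74 ± 0.78, with adjusted p of 0.167, 0.532 and 0.0186 in edgeR. Without NHD13 replicate 1, the signs of Cd247 and Cd28 turned in both comparisons, to 1.43 and 2.19 over NHD13 and to -0.86 and -0.32 for NHD13 over control, while Thy1 over NHD13 was -1.32 (adjusted p = 0.493 in edgeR). Without NHD13 replicate 2, in contrast, Cd247 and Thy1 over NHD13 were called, at -2.95 and -4.55 (adjusted p of 0.00371 and 0.00312 in edgeR), and Cd247 was called in NHD13 over control at 3.52 (adjusted p = 0.00617 in edgeR). Over control, the libraries labelled NHD13/MSI2 gave log2 fold changes of 0.54 ± 0.76 (Cd247), 1.85 ± 0.95 (Cd28) and -0.93 ± 0.72 (Thy1), with adjusted p of 0.674, 0.21 and 0.418 in edgeR.

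**Figure D2:**
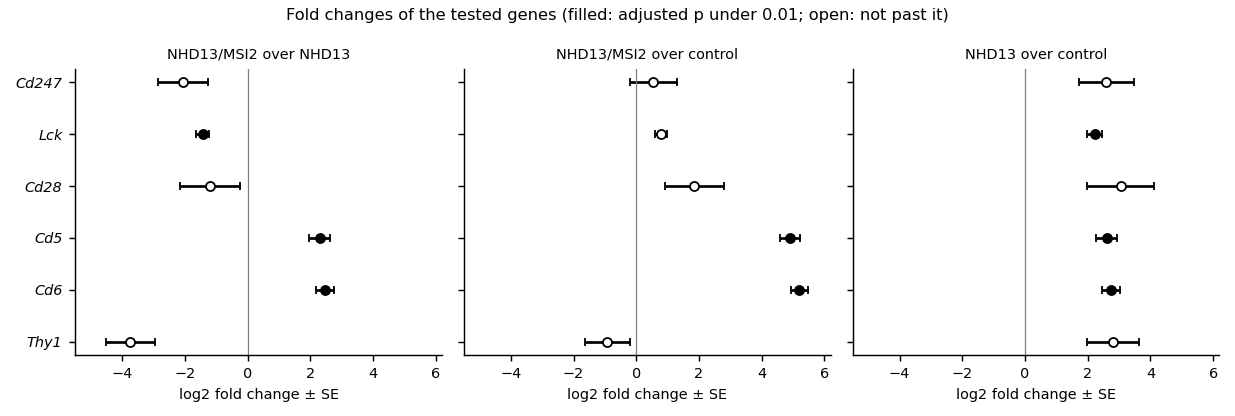
Log2 fold changes (x axis) with standard errors of the 6 tested genes in the 3 comparisons, filled where edgeR's adjusted p was under 0.01. Cd5 and Cd6 are right of 0 in each panel, whereas Lck is at -1.44 over NHD13 and at 2.22 in NHD13 over control.

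Counted over the 10 genes, 6 passed the filter and 4 did not, so the counts describe the 6. In NHD13/MSI2 over NHD13, 2 rose (Cd5 and Cd6) and 1 fell (Lck), beside 3.17% of all tested genes past the threshold, 0.584% higher and 2.58% lower. In NHD13/MSI2 over control, 2 rose and none fell, beside 11% of all tested genes past the threshold, 4.49% higher and 6.55% lower. In NHD13 over control, 3 rose (Lck, Cd5 and Cd6) and none fell, beside 1.03% of all tested genes, 0.824% higher and 0.21% lower. With only control replicate 2, the control library of the same Xist and Y-linked pattern as the other groups, none of the 6 was called by edgeR in NHD13 over control, with log2 fold changes of 2.13 (Lck), 2.17 (Cd5) and 3.32 (Cd6), and 7 genes in all were called by that edgeR fit. With both libraries that stand apart left out, NHD13/MSI2 over NHD13 called Cd6 alone, and the other comparisons called the numbers given above. Groups did not overlap for 4, 4 and 3 of the 6 genes, beside 29.9%, 35.7% and 37.4% of all tested genes. The median log2 fold change of the 6 was -1.32, 1.32 and 2.67 in the order of comparisons above, beside -0.03, -0.01 and 0.02 over all tested genes. The sign of the first median, -1.32, rests on 1 library. Without NHD13 replicate 1, Cd247 and Cd28 turned to 1.43 and 2.19 over NHD13, while Cd5 and Cd6 stayed above 0 and Lck and Thy1 below it. As the 3 comparisons share libraries, these counts are not independent of each other.

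Per kb of exon, the order of the genes changed between groups. In control, Lck led at 17.8 ± 1.96 CPM per kb (SD, n = 3), followed by Cd6 at 0.957, Thy1 at 0.808 and Cd247 at 0.551 CPM per kb, which did not differ beyond their spread. In NHD13, Lck was at 83.1 CPM per kb and Cd6 followed at 6.42 CPM per kb, overlapping with Thy1. In the libraries labelled NHD13/MSI2, Cd6 at 35.4 ± 7.36 and Lck at 30.7 ± 6.94 CPM per kb overlapped (SD, n = 4), and Cd5 came next at 5.41 ± 0.88 CPM per kb, apart from its neighbours. In each group the CD3 genes were at the lower end, at under 0.34 CPM per kb.

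In bulk samples a smaller share of cells of a type and less RNA per cell cannot be told apart. Against this background the markers of other cell types were read in each library. The 10 genes summed to 46.7 to 52.4 CPM in control, to 280 and 218 CPM in NHD13 and to 154 to 246 CPM in the libraries labelled NHD13/MSI2, which mostly counts Lck and Cd6. The 14 NK cell genes summed to 197 to 383 CPM in control, to 110 and 56.7 CPM in NHD13 and to 43.7 to 60.9 CPM in the libraries labelled NHD13/MSI2. The control sums were mostly Nkg7, a granule gene of cytotoxic cells, and without it the list summed to 17.7 to 30.1, to 64.9 and 25.1, and to 13.6 to 29.3 CPM. The 14 B cell genes summed to 117 to 170, to 248 and 235, and to 379 to 581 CPM in these groups, although B220, a B lineage antigen, is among the antibodies of the gate. The 10 type 2 innate lymphoid genes summed to 23.2 to 33.1, to 62.7 and 100, and to 40.3 to 57.7 CPM. In the libraries labelled NHD13 and NHD13/MSI2 Il17rb made up most of that sum, and without it the list summed to 21.0 to 28.7, to 27.9 and 10.3, and to 2.60 to 8.91 CPM. Both genes were left out after their values had been seen. Their part in the levels of Cd5, Cd6 and Lck was not tested.

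**Figure D3:**
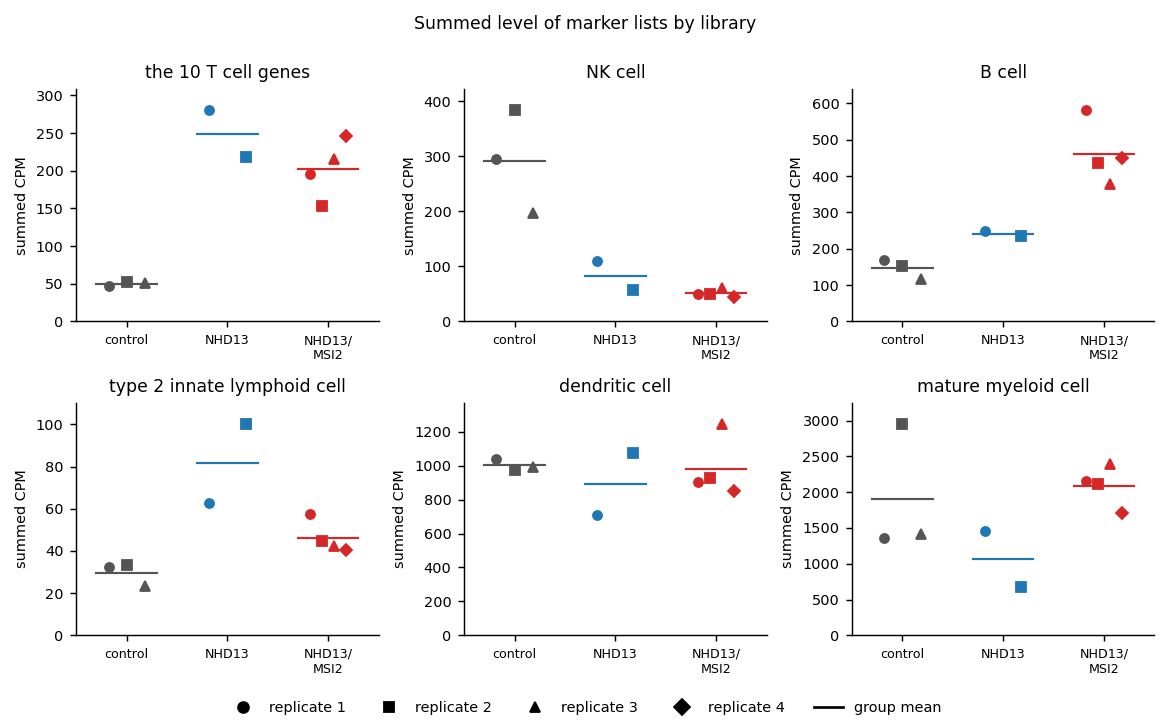
Summed CPM (y axis, from 0) of the 10 T cell genes and of 5 marker lists in each library, by group, with a line at the group mean. The B cell sum is 117 to 170 CPM in control and 379 to 581 CPM in those labelled NHD13/MSI2, and the NK cell sum in control is mostly Nkg7.

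In the B cell list, 5 of 14 tested genes rose in NHD13/MSI2 over control (Cd79a, Cd79b, Pax5, Vpreb3 and Fcer2a) and 2 over NHD13 (Cd79b and Fcer2a), none fell, and the median log2 fold change of the list was 0.69 and 0.16. Of all tested genes, 4.49% rose and 6.55% fell in NHD13/MSI2 over control, and 0.584% rose and 2.58% fell over NHD13. The counts of every list below stand beside these shares. With each library left out, Cd79b and Fcer2a over control kept their calls in 9 of 9 fits, and over NHD13 in 1 and 3, with losses without any 1 control library. Over control, Pax5 and Vpreb3 kept theirs in 7 of 9 fits, being lost without control replicate 2 or 3. Cd79a kept its call over control in 3 of 9 and lost it without any 1 control library. Of the 9 tested NK cell genes, Nkg7 fell and Klrb1c rose in NHD13/MSI2 over control, and edgeR called none over NHD13, with 2 at an unadjusted p under 0.05 and none by DESeq2. Their calls over control were kept in 9 and 7 of 9 fits. Nkg7 also fell in NHD13 over control, at 45.1 and 31.6 CPM in NHD13 against 179 to 365 CPM in control. That call was kept in 6 of 9 fits. In NHD13 over control, 0.824% of all tested genes rose and 0.21% fell. Of the 5 tested type 2 innate lymphoid genes, Rora fell in both comparisons of NHD13/MSI2, and Il17rb rose in both comparisons with control. Rora kept its call over control in 9 of 9 fits and over NHD13 in 3. Il17rb kept its call in 9 fits of NHD13/MSI2 over control and in 7 of NHD13 over control. Of 14 dendritic cell genes, 3 rose and 1 fell in NHD13/MSI2 over control, and of 11 mature myeloid genes 2 rose there and 3 rose over NHD13. Among the dendritic cell genes, Irf8 kept its rise in 9 of 9 fits, Cd209d in 3 and Cd209a in 1, and Flt3 kept its fall in 4. Of the myeloid genes, Itgam and Csf1r kept their calls over control in 9 of 9 fits. Over NHD13, Itgam and Csf3r kept theirs in 6 and Csf1r in 1. The sort markers were present in every library: Kit was at 908 to 2254 CPM, and Ly6a, which encodes Sca1, was at 48.3 to 375 CPM, with all 4 libraries labelled NHD13/MSI2 above the other 5.

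Genes that act below the receptor were compared with the members, over 42 signalling genes of which 40 were tested. In NHD13/MSI2 over NHD13, 3 fell and none rose: Lat (log2 fold change -2.22 ± 0.20, adjusted p = 0.000698 in edgeR), the adaptor that ZAP-70 phosphorylates, Lcp2 (-2.96 ± 0.39, adjusted p = 0.00305 in edgeR), which encodes SLP-76, and Tespa1 (-1.42 ± 0.26, adjusted p = 0.00972 in edgeR). Lat was at 107 and 127 CPM in NHD13 and at 21.1 to 32.1 CPM in the libraries labelled NHD13/MSI2, against 45.2 to 56.3 CPM in control, so it was highest in NHD13, as Lck was, and lowest in the libraries labelled NHD13/MSI2, where Lck was not. Lcp2 was at 207 to 225 CPM in control, at 219 and 57.9 CPM in NHD13 and at 14.6 to 21.1 CPM in the libraries labelled NHD13/MSI2. Over control, Lat, Lcp2 and Tespa1 fell there as well and Tec, a kinase of the same pathway, rose by 1.45 on the log2 scale (adjusted p = 0.00125 in edgeR). These 3 lower and 1 higher of 40 were near the shares of all tested genes over control, 6.55% lower and 4.49% higher. Over NHD13 the shares of all tested genes were 2.58% lower and 0.584% higher. For NHD13 over control none of the 40 was called by edgeR, with 13 at an unadjusted p under 0.05, and DESeq2 called 6, all higher. With each of the 9 libraries left out in turn, Lat over NHD13 kept its call in all 9 fits, Lcp2 in 8, all but that without NHD13/MSI2 replicate 1, and Tespa1 in 1, that without NHD13 replicate 1. Over control, Lcp2, Tespa1 and Tec kept theirs in all 9 and Lat in 4, being lost without any 1 control library or without NHD13/MSI2 replicate 1 or 2. With control replicate 2 as the only control, Lat alone was called over NHD13 and none over control. The median log2 fold changes of the list were -0.18, 0.23 and 0.17.

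Of 24 coreceptor and costimulation genes, 21 were tested, and edgeR called none in NHD13/MSI2 over NHD13 or in NHD13 over control, with 11 and 7 at an unadjusted p under 0.05, while DESeq2 called 3 in each. Against control, 2 rose and 4 fell in the libraries labelled NHD13/MSI2, and 2 and 8 with both libraries that stand apart left out. Pdcd1, an inhibitory receptor, was at 0 to 0.840 CPM in control, at 6.76 and 6.87 CPM in NHD13 and at 11.7 to 41.7 CPM in the libraries labelled NHD13/MSI2, a stepwise order like that of Cd5 and Cd6 (log2 fold change 5.79 ± 0.85, adjusted p = 0.00155 in edgeR over control). Alcam, the ligand of CD6, went the opposite way, at 33.9 to 46.1 CPM in control, at 12.8 and 11.4 CPM in NHD13 and at 2.17 to 7.59 CPM in the libraries labelled NHD13/MSI2 (log2 fold change over control -3.25 ± 0.39, adjusted p = 0.000589 in edgeR). Slamf6 was the other gene that rose and Lag3, Cd244 and Cd86 were the others that fell. Beside these 2 higher and 4 lower of 21, 4.49% of all tested genes rose and 6.55% fell over control. With each library left out, Alcam kept its call in 9 of 9 fits and Pdcd1 in 8, all but that without control replicate 1, while the other 4 kept theirs in 3 or 4 and lost them without any 1 control library. Cd8a had 31 counts in NHD13 replicate 1, 12 in NHD13/MSI2 replicate 3 and at most 3 elsewhere, and Cd4 had 6 to 222 counts.

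Of 20 T lineage regulators 18 were tested, and edgeR called none in NHD13/MSI2 over NHD13 or in NHD13 over control, with 9 and 6 at an unadjusted p under 0.05, while DESeq2 called 3 and 2. Gata3 (-4.38 ± 0.69, adjusted p = 0.00229 in edgeR) and Tox (-3.06 ± 0.62, adjusted p = 0.00745 in edgeR) fell in NHD13/MSI2 over control. Of the 18, 2 thus fell and none rose, beside 6.55% of all tested genes lower and 4.49% higher. Gata3 kept its call in 8 of 9 fits, all but that without control replicate 1, and Tox in 2, those without an NHD13 library. With control replicate 2 as the only control, edgeR called none of these lists' genes over control, with 10 coreceptor genes and 5 regulators at an unadjusted p under 0.05.

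NHD13 replicate 1 was read against the other libraries in these lists. It was the highest of the 9 libraries for 4 of the 6 tested members and exceeded the next library by over 3 times for 3 of them, beside 12.4% and 1.38% of all tested genes. For the 40 signalling genes these counts were 16 and 7, and for the 18 lineage regulators they were 7 and 4. For the 21 coreceptor and costimulation genes they were 4 and 1, and for the 9 NK cell genes 3 and 0. Themis, a thymocyte selection gene, was at 148 CPM in NHD13 replicate 1, at 0.247 CPM in replicate 2 and at most at 17.7 CPM elsewhere. Tcf7, which encodes TCF1, was at 139 CPM against 1.33 CPM, and Bcl11b at 42.3 against 0.0494 CPM. These genes were named after their values had been seen. In NHD13 replicate 1 the defining CD3 genes had 26 counts in all and Cd8b1 had 21 counts. The part of any other cell type in the high values was not tested.

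**Figure D4:**
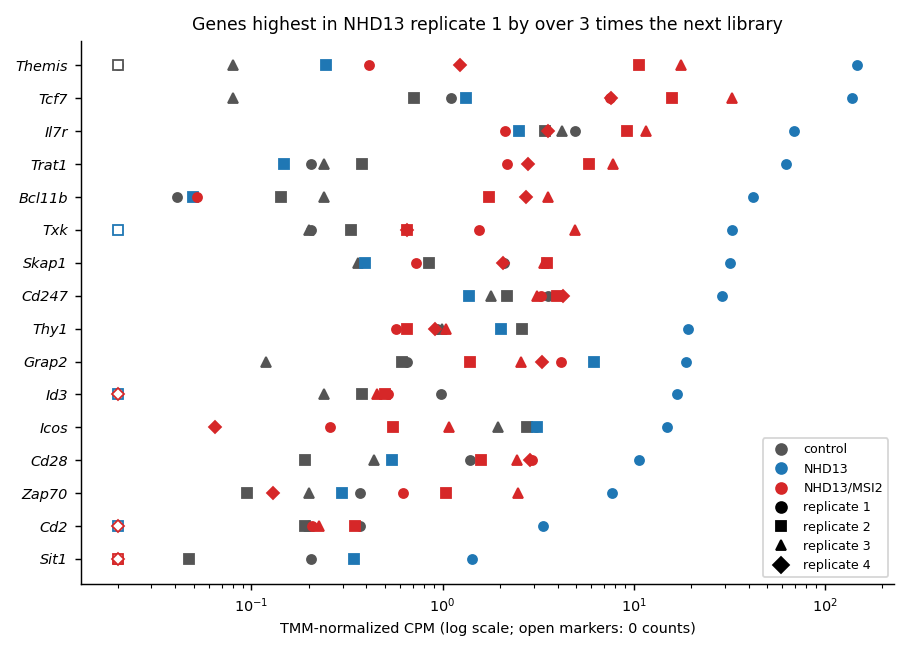
CPM (x axis, log scale, open markers for 0 counts) of 16 genes, 4 of them members, among the members and the signalling, coreceptor and lineage lists that were above 1 CPM in NHD13 replicate 1 and above 3 times the next library. Blue circles, NHD13 replicate 1, lie right of every other marker, and blue squares are NHD13 replicate 2.

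Around the CD3 genes, Cd5 and Cd6, Lck and Thy1, the 3 nearest tested protein-coding genes on either side were read. Of the 6 around Cd5 and Cd6, Tmem132a rose in NHD13 over control (log2 fold change 2.77 ± 0.42, adjusted p = 0.00846 in edgeR) and in NHD13/MSI2 over control (3.78 ± 0.40, adjusted p = 0.000289 in edgeR), but was not called over NHD13 (1.01 ± 0.40, adjusted p = 0.169 in edgeR). Slc15a3, which starts between Cd6 and Tmem132a, had log2 fold changes of 1.95 ± 0.75, 2.94 ± 0.69 and 0.99 ± 0.71 in the same order and did not pass. The annotated spans of Slc15a3 and Tmem132a overlap from 10857822 to 10859362 on opposite strands. Counts there are uncertain where the counting did not use strand. Vps37c, whose annotated end is 2.49 kb from that of Cd5, had log2 fold changes of 0.25, 0.21 and -0.04. None of the 6 genes around Lck, of the 6 around Thy1 or of the 6 around the CD3 genes was called by edgeR in any of the 3 comparisons. On the lower side of Thy1 the nearest tested genes were far off: Oaf, Tmem136 and Arhgef12 lay at -803, -927 and -936 kb from it. Over NHD13, edgeR called none of the 24 neighbours, with 5 at an unadjusted p under 0.05, and DESeq2 called Usp2, beside Thy1, as lower. With each library left out, Tmem132a kept its call in NHD13/MSI2 over control in 9 of 9 fits, and in NHD13 over control in 2, those without NHD13 replicate 1 or NHD13/MSI2 replicate 4. With control replicate 2 as the only control it was called in neither.

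**Figure D5:**
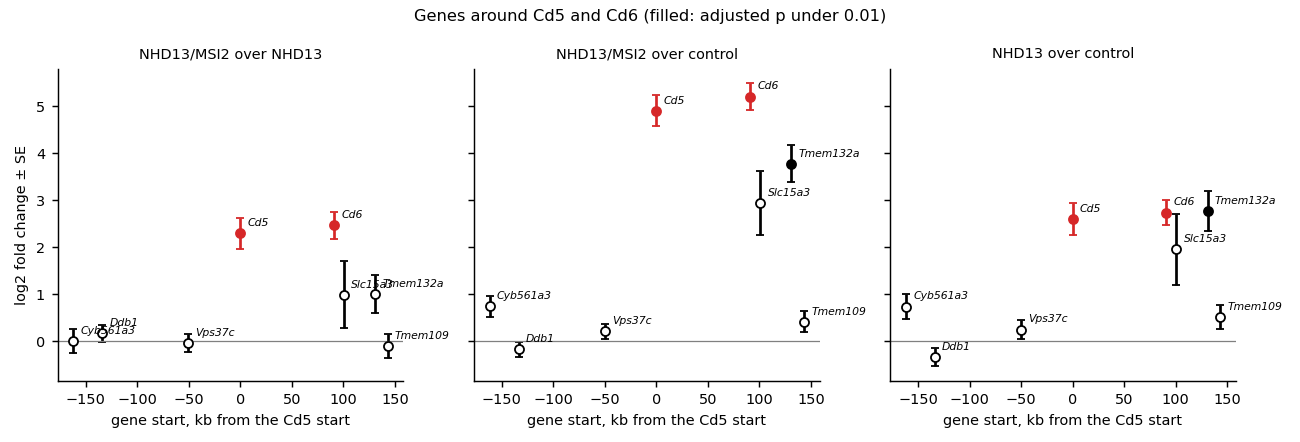
Log2 fold change with standard error (y axis) of Cd5, Cd6 (red) and the 6 nearest tested genes (black) against the distance of their start from that of Cd5 in kb (x axis), in the 3 comparisons, filled where the adjusted p was under 0.01. Cd5, Cd6 and Tmem132a are filled in both comparisons with control, while Vps37c stays within 0.26 of 0.

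The genes whose pattern over the 9 libraries was most like the mean Z-score of the 6 tested members were, among 10966 genes, Gm525 (Pearson's r = 0.976), Cyp4f18 (0.962), Esyt1 (0.958), Clstn1 (0.958), B230217C12Rik (0.951) and Nxpe4 (0.951). These r describe 9 libraries that share their depth and the high value of NHD13 replicate 1, since the mean Z-score was 1.33 there and -0.04 in NHD13 replicate 2. By member, and chosen after the values were seen, Arid3a was most like Cd6 (r = 0.994), Ctsz most like Cd5 (0.990), Hoxc8 most like Lck (0.960) and Treml4 most like Cd247 (0.959).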

How the data were processed

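RNA of sorted LSKs was sequenced in 9 libraries, and the table that the authors deposited holds raw counts, whole numbers for each gene symbol, with 1 column per library. The submitters' processing notes name STAR, HTSeq, DESeq and mm9, without their roles. The strand of the library and of counting is not given in the sources used here. Of 24073 rows, 11942 names standing after the March genes were moved down by 2 rows, which put Xist, Uty, Mpo and the ribosomal protein genes at their levels; of the 10 genes this affects Thy1. The 13 rows left without a name took up 0.0253% to 0.0323% of the counts and were not used.

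In R 4.3.3, the deposited counts were filtered by filterByExpr by group (13355 genes), scaled by TMM and fitted by edgeR 4.0.16 (quasi-likelihood test) with all 9 libraries and group as the only term, so that NHD13, with 2 libraries, shares the spread of all groups. Adjusted p are Benjamini-Hochberg values over all tested genes, and the threshold was 0.01. Standard errors are the log2 fold change over the square root of F. CPM are counts over TMM-scaled library sizes, CPM per kb divide by the exon union of GENCODE M21, and 3 counts were taken as the floor. Over the TMM-scaled library sizes, 3 counts came to 0.120 to 0.195 CPM. Total counts alone, 19242153 to 23013493, put them at 0.130 to 0.156 CPM. The procedure was tested on simulated counts. DESeq2 1.42.0, RLE size factors, no filter, a mean of at least 50 counts, a threshold of 0.05, only the groups compared, a replicate block, names as deposited and each library left out were alternatives; 2 more (control replicate 2 as the only control, and both libraries that stand apart left out) were added after seeing the data. Same-numbered libraries deviated from their group means with correlations of -0.07 to 0.19, so the numbers were not taken to pair libraries.

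The members and the marker lists were chosen with earlier results of these data known. All 10 members are named. The values of 1 gene of the signalling list are not reported here. From each list, up to 6 genes past the threshold per comparison and up to 4 others by level could be named. Neighbours were the 3 nearest tested protein-coding genes on each side, and the most alike genes were the 6 of highest Pearson's r over 9 libraries, with at least 50 counts on average. Promoter windows are from RefSeq on GRCm38.p6, and gene positions from GENCODE M21 on GRCm38; both describe the genes and were not used to count reads.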

Additional observations from a re-analysis of the deposited data

Results flagged for a closer look

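Cd3e was at 0.698 CPM (14 counts) in NHD13/MSI2 replicate 2 and at 0 in the 3 other libraries of that group, so this library was far from the others. Cd3g was at 0.0997 CPM (2 counts) in the same library and at 0 in the other 3, which is under the floor of 3 counts. Where 3 of 4 libraries are at 0, any count sets the fourth apart, so the usual chance rate of about 1 in 20 groups does not apply to these, and 10 groups, 1 per gene, were examined.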

How the results depend on the processing

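Of 342 log2 fold changes of the 6 tested genes under alternatives, 334 kept their direction and 294 kept both direction and side of the threshold. The 8 that turned were Cd247 and Cd28: without NHD13 replicate 1 they were 1.43 and 2.19 in NHD13/MSI2 over NHD13 and -0.86 and -0.32 in NHD13 over control, and with both libraries that stand apart left out they were 1.32 and 2.09, and -0.86 and -0.31; with fewer samples left, NHD13 is 1 library, which is assumed to vary like the other groups. Leaving out each library in turn, Cd247 ran from -2.95 to 1.43 and Cd28 from -2.08 to 2.19 over NHD13, and in NHD13 over control they ran from -0.86 to 3.52 and from -0.32 to 4.12. The number of members called in NHD13/MSI2 over NHD13, 3 as reported, was 1 with only the groups compared, 1 with control replicate 2 alone as control, 1 with both libraries that stand apart left out, and 0 to 3 with each library left out (0 without NHD13 replicate 1). In NHD13 over control, 3 as reported, it was 1 with only the groups compared, 0 with control replicate 2 alone, and 1 to 3 with each library left out. In NHD13/MSI2 over control, 2 as reported, it was 2 to 3. The cause of these changes was not tested. With the replicate block, which correlations of -0.07 to 0.19 between same-numbered libraries did not call for, 2 members were called in NHD13/MSI2 over NHD13 (Cd5 at 2.22, adjusted p = 0.02 in edgeR), 2 in NHD13 over control (Cd5 at 2.61, adjusted p = 0.0192 in edgeR), and 203 of all genes over NHD13. Over all tested genes, NHD13/MSI2 over NHD13 gave 423 calls, 1286 by DESeq2, 1177 at 0.05, 30 with only the groups compared, 38 with control replicate 2 alone and 128 to 646 leaving out each library. NHD13/MSI2 over control gave 1474, 2589 by DESeq2, 2745 at 0.05, 95 with control replicate 2 alone, 2628 without both libraries and 647 to 2066 leaving out each. NHD13 over control gave 138, 594 by DESeq2, 386 at 0.05, 83 with only the groups compared, 7 with control replicate 2 alone, 418 without both libraries and 38 to 251 leaving out each. Without TMM factors the NHD13 means were 204 (Lck), 3.64 (Cd5) and 20.6 (Cd6) CPM, and with names as deposited the row called Thy1 was at 26.3, 28.7 and 21.6 CPM in the 3 groups. Depth limits the CD3 genes and Cd2.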
